A study of Mus with 12 samples.

Results

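The genes described here are 8 rows of a mouse immuno-oncology panel of 770 genes: the interleukin-1 family cytokines Il1a, Il1b, Il18 and Il33, the receptor gene Il1r2, the antagonist gene Il1rn, and the inflammasome genes Casp1 and Nlrp3. They were taken by name, and all 8 were measured in each of 12 liver tumours. The tumours were MYC-HCC, a mouse hepatocellular carcinoma model named for the MYC oncogene. Mice had received anti-PDL1 together with anti-CTLA4 (the combination), anti-PDL1 alone, anti-CTLA4 alone, or control IgG, with 3 mice in each group, and each library was made from total RNA of 1 formalin-fixed, paraffin-embedded tumour. Both antibodies release brakes on T cells: anti-PDL1 keeps PDL1 from engaging the receptor PD-1, and anti-CTLA4 occupies the receptor CTLA4. All groups, control IgG included, carried the same kind of tumour. The sources used here do not give how MYC was introduced, nor the strain, sex, age, antibody doses or time of sampling.

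Interleukin-1 alpha and beta (Il1a, Il1b) are inflammatory cytokines that act through a shared receptor and the adaptor MyD88. The antagonist encoded by Il1rn occupies that receptor without signalling, and Il1r2 encodes a decoy receptor that binds interleukin-1 without passing the signal on. NLRP3 is a sensor that assembles the inflammasome, in which caspase-1 (Casp1) becomes active and cuts the precursors of interleukin-1 beta and interleukin-18 into their secreted forms. Interleukin-33 is released from damaged endothelial and epithelial cells and from stellate cells of the liver. Transcript levels, which were measured here, do not show how much of these proteins was cut or secreted.

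Values are normalized counts as deposited: within a library they were whole multiples of 1 step, taken here as the factor by which its raw barcode counts had been scaled, and low values were listed at a floor of 20. The factors ran from 0.7337 to 1.7928 in the combination libraries, from 0.6569 to 2.1011 under anti-PDL1 and from 0.9361 to 2.6247 under anti-CTLA4, against 0.5623 to 1.104 under IgG. Recovered raw counts totalled 439149 to 864464 per library. All 96 values of the 8 genes lay above the floor and rested on 24 to 401 recovered counts, and 1 of them, Il1r2 in anti-PDL1 mouse 2, was not above the highest negative control probe of its library. The liver label held in all 12 libraries by the defining hepatocyte genes measured: the lowest values were 29255 normalized counts for Apoe, 961.5 for Arg1 and 975.5 for Fbp1. Proliferation genes set 3 libraries apart, anti-PDL1 mouse 2 and anti-CTLA4 mice 1 and 2, whose mean log2 levels of these genes were 6.65, 8.24 and 5.57, against 9.30 to 9.44 in the IgG libraries. Values without these 3 libraries, a setting chosen after the data were seen, are given beside Casp1, Il18 and the contrasts of the 8 genes, and for the gene lists in the last paragraph.

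None of the 8 genes passed the test in any comparison of a treated group with IgG, and the largest differences were those of Casp1 and Il18. In both genes the lowest of the 9 treated tumours lay above the highest of the 3 IgG tumours, as in 8.05% of all 770 genes. The fitted log2 fold changes of Casp1 and Il18 stayed positive under each scaling tried. But with each library scaled to the same median they were 0.40, 0.78 and 0.70 for Il18 and 0.88, 1.10 and 0.78 for Casp1 in the combination, anti-PDL1 and anti-CTLA4 groups. Casp1 had fitted differences of 2.53-fold under the combination, 3-fold under anti-PDL1 and 2.56-fold under anti-CTLA4, each against IgG. In limma, 0 of 8 genes passed in the comparison of the combination with IgG (2.86% of all 770 genes passed), 0 of 8 under anti-PDL1 (2.99%) and 0 of 8 under anti-CTLA4 (2.6%). Of the panel genes that passed, 21 of 22, 21 of 23 and 20 of 20 were lower than under IgG. With only the 559 genes of a mean of at least 50 normalized counts in the fit, 7 of the 8 among them, 0% passed in each comparison. At an unadjusted p under 0.05 in limma, 1 of the 8 genes, Casp1, would have been taken in each of these comparisons. Of all 770 genes, 119, 146 and 165 would have been taken, in the same order. Where each library was weighted by its quality, gene by gene, a setting chosen after the data were seen, Casp1 passed in all 3 comparisons and Il18 passed under anti-CTLA4. In that fit 20.4%, 13.5% and 39.6% of all 770 genes passed in the 3 comparisons. The threshold was an adjusted p of 0.05, Benjamini-Hochberg over all 770 genes, in a model of log2(value + 1) that shares its residual spread over the 4 groups. The 3 comparisons share the same IgG mice, so that they are not independent of each other. In bulk tumour RNA, a change in the number of cells of a type and a change in RNA per cell cannot be told apart, in either direction.

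The median log2 fold change of the 8 genes was 0.52 under the combination, 0.23 under anti-PDL1 and 0.53 under anti-CTLA4. The median over the genes above the floor in every library was 0.28, 0.32 and 0.51 in the same comparisons, and 66.7%, 69.2% and 74.6% of those genes had positive values. Under the combination 6 of 8 fold changes were positive, under anti-PDL1 6 of 8 and under anti-CTLA4 8 of 8; with each library scaled to the same median these numbers were 5, 3 and 3, and with quantile normalization 7, 4 and 7. Median scaling moved the panel's own median by a similar step, to -0.17, -0.16 and -0.06. Without anti-PDL1 mouse 2, the number of positive fold changes under anti-PDL1 was 2 of 8, with a median of -0.24. Without IgG mouse 2, or without combination mouse 1, all 8 were positive under the combination, with medians of 0.52 and 0.55.

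**Figure D1:**
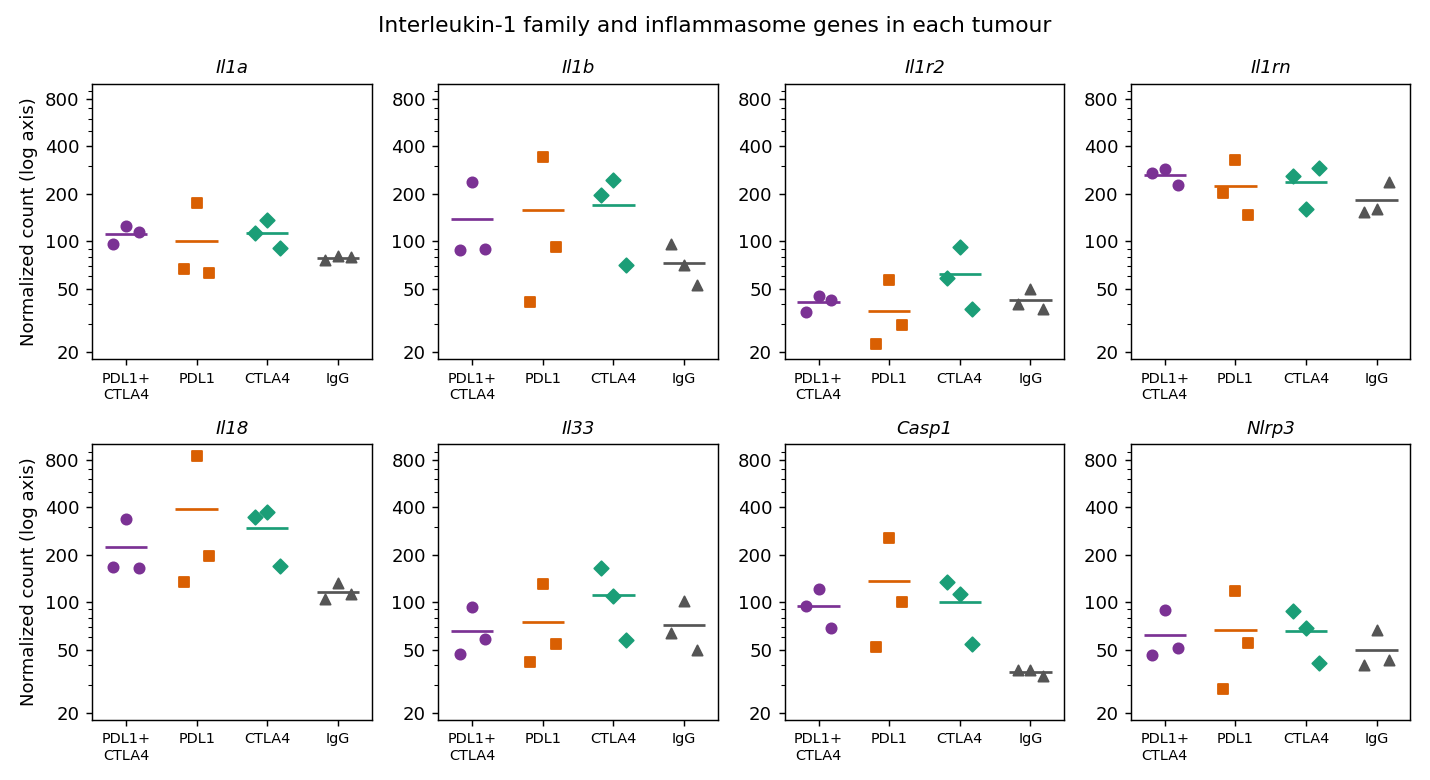
Normalized counts (log axis) of the 8 genes in each tumour, with 1 point per mouse and a bar at the mean of each group. Casp1 lay between 34.2 and 37.1 normalized counts in the IgG tumours and at 51.9 or more in all 9 treated tumours, whereas in Nlrp3, Il33 and Il1r2 each treated group overlapped the IgG group.

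**Figure D2:**
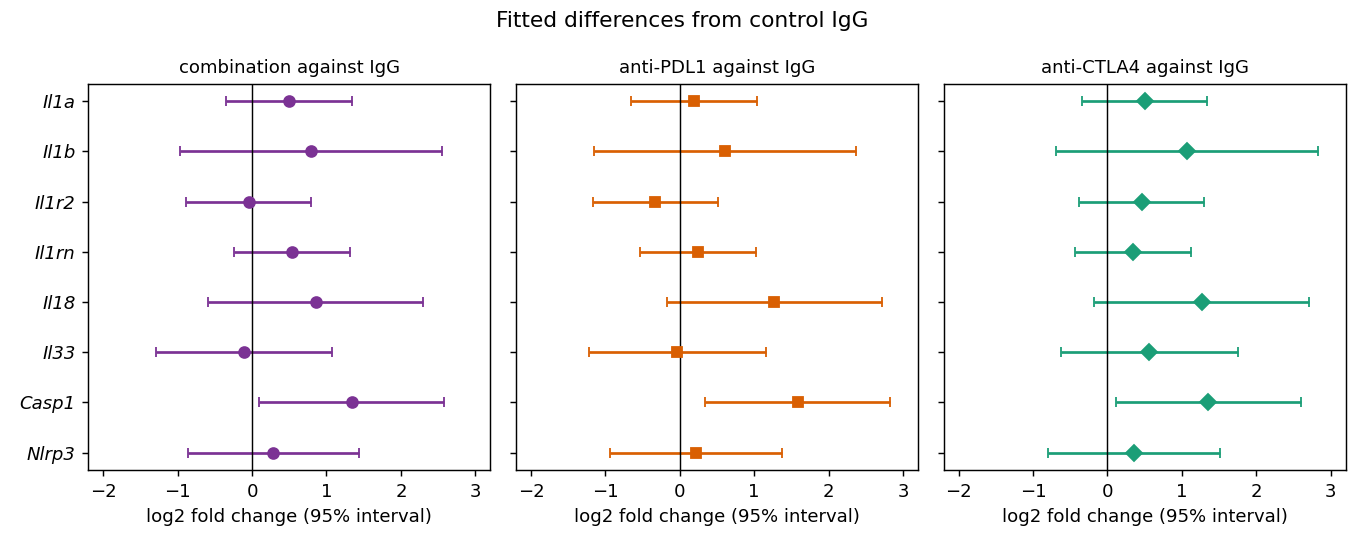
Fitted log2 fold changes of the 8 genes in each treated group against IgG, with 95% confidence intervals from limma. The intervals of Casp1 lie above 0 before adjustment for 770 genes, and all others include 0.

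Among the ligands, Il1a encodes interleukin-1 alpha, which acts without being cut by caspase-1. It had 96.1, 126 and 114 normalized counts in combination mice 1, 2 and 3, 67.0, 174 and 62.7 under anti-PDL1, 112, 136 and 90.8 under anti-CTLA4, and 75.8, 81.0 and 79.5 under IgG. The IgG mice were close together. All combination and all anti-CTLA4 mice lay above them, as in 22.7% and 19.0% of all genes, while anti-PDL1 mice 1 and 3 lay below them. The log2 fold change was 0.50 under the combination (SE 0.374, limma adjusted p = 0.61), 0.20 under anti-PDL1 (SE 0.374, limma adjusted p = 0.823) and 0.50 under anti-CTLA4 (SE 0.374, limma adjusted p = 0.387). The value under anti-PDL1 was -0.28 without its mouse 2, and the values under anti-PDL1 and anti-CTLA4 were -0.29 and -0.07 with median scaling.

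Il1b encodes interleukin-1 beta, a cytokine made chiefly by activated macrophages and monocytes. It had 88.8, 238 and 89.8 normalized counts in combination mice 1 to 3, 41.4, 342 and 92.2 under anti-PDL1, 198, 244 and 71.2 under anti-CTLA4, and 96.7, 70.8 and 53.0 under IgG. Every treated group overlapped the IgG group: 4 treated tumours lay between 198 and 342, and the other 5 between 41.4 and 92.2, below the highest IgG tumour. The log2 fold changes of 0.79 under the combination (SE 0.782, limma adjusted p = 0.724), 0.61 under anti-PDL1 (limma adjusted p = 0.692) and 1.07 under anti-CTLA4 (limma adjusted p = 0.378) had 95% intervals that included 0. Without mouse 2 the anti-PDL1 value was -0.20. Il1a and Il1b are neighbours in the mouse genome in the RefSeq annotation, and over the 12 tumours their log2 levels had a Pearson r of 0.85. It was 0.64 over the 7 tumours, those of IgG included, whose factor did not exceed the highest IgG factor.

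Il18 encodes interleukin-18, which caspase-1 activates and which drives interferon-gamma production by T and NK cells. It had 167, 339 and 165 normalized counts in combination mice 1 to 3, 135, 843 and 196 under anti-PDL1, 348, 373 and 170 under anti-CTLA4, and 105, 132 and 113 under IgG. All 9 treated tumours lay above all IgG tumours, as in 8.05% of all genes, the nearest being anti-PDL1 mouse 1 at 134.7 against IgG mouse 2 at 132.1. Group means were 224 ± 99.8 under the combination, 391 ± 392 under anti-PDL1 and 297 ± 110 under anti-CTLA4, against 116 ± 14.1 under IgG (SD, n = 3 each). The log2 fold changes were 0.86 (SE 0.64, limma adjusted p = 0.605), 1.27 (SE 0.64, limma adjusted p = 0.339) and 1.27 (SE 0.64, limma adjusted p = 0.28), in that order. Without anti-PDL1 mouse 2, which held the highest value of the 12, the fold change under anti-PDL1 was 0.48.

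Il33, the alarmin released by damaged cells, had 46.9, 93.2 and 58.2 normalized counts in combination mice 1 to 3, 42.0, 130 and 54.1 under anti-PDL1, 164, 110 and 58.0 under anti-CTLA4, and 63.7, 101 and 49.7 under IgG. Each treated group overlapped the IgG mice, and the highest value was that of anti-CTLA4 mouse 1. Fitted log2 fold changes were -0.11 under the combination (SE 0.528, limma adjusted p = 0.999), -0.04 under anti-PDL1 (limma adjusted p = 1) and 0.56 under anti-CTLA4 (limma adjusted p = 0.478). The sign under the combination depended on IgG mouse 2 and on combination mouse 1, with values of 0.17 and 0.10 without them. Under anti-PDL1 the values were 0.24 without IgG mouse 2, 0.29 without anti-PDL1 mouse 1 and 0.11 without its mouse 3, and median scaling took the value under anti-CTLA4 to -0.01.

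Both inhibitors of the pathway overlapped with IgG in every treated group. Il1rn, the receptor antagonist, had 273, 289 and 229 normalized counts in combination mice 1 to 3, 204, 328 and 146 under anti-PDL1, 259, 160 and 294 under anti-CTLA4, and 153, 160 and 240 under IgG. Combination mouse 3 was the 1 tumour of its group below the highest IgG mouse. The log2 fold change was 0.54 under the combination (SE 0.347, limma adjusted p = 0.546), 0.24 under anti-PDL1 (limma adjusted p = 0.727) and 0.35 under anti-CTLA4 (limma adjusted p = 0.511). Under anti-PDL1 and anti-CTLA4 the values were -0.24 and -0.22 with median scaling and -0.16 and -0.09 with quantile normalization, and without anti-PDL1 mouse 2 the anti-PDL1 value was -0.06. The range of Il1rn over the 12 tumours was the narrowest of the 8 genes, 2.24-fold between the highest and the lowest tumour, against 8.27-fold for Il1b.

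Il1r2, the decoy receptor, had the lowest recovered counts of the 8 genes, 24 to 89 per library. It had 35.9, 44.8 and 42.4 normalized counts in combination mice 1 to 3, 22.3, 56.7 and 29.5 under anti-PDL1, 58.5, 91.9 and 37.4 under anti-CTLA4, and 40.3, 50.04 and 37.5 under IgG. All 3 treated groups overlapped the IgG group, and anti-CTLA4 mouse 2 held the highest value. The log2 fold change was -0.05 under the combination (SE 0.373, limma adjusted p = 1), -0.33 under anti-PDL1 (limma adjusted p = 0.663) and 0.46 under anti-CTLA4 (limma adjusted p = 0.416). These signs flipped with quantile normalization under the combination, to 0.07, and with median scaling under anti-CTLA4, to -0.11. Without IgG mouse 2 or combination mouse 1 the combination value was 0.07 or 0.04.

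Casp1, the protease of the inflammasome, had 94.6, 122 and 69.1 normalized counts in combination mice 1 to 3, 51.9, 256 and 101 under anti-PDL1, 135, 113 and 54.3 under anti-CTLA4, and 37.1, 37.1 and 34.2 under IgG. The IgG tumours lay close together, and every treated tumour lay above them, as in 8.05% of all genes. The IgG values rested on 46, 66 and 31 recovered counts, where the highest negative control probes had 25, 24 and 15 counts. Group means were 95.2 ± 26.4 under the combination, 136 ± 107 under anti-PDL1 and 101 ± 41.7 under anti-CTLA4, against 36.1 ± 1.66 under IgG (SD, n = 3 each). The log2 fold change under the combination was 1.34 (SE 0.551, 95% interval 0.10 to 2.58), with an unadjusted p of 0.0376 and a limma adjusted p = 0.305. Under anti-PDL1 it was 1.59 (SE 0.551, limma adjusted p = 0.162) and under anti-CTLA4 1.36 (SE 0.551, limma adjusted p = 0.219).

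With only the IgG and combination mice in the fit, Casp1 passed the threshold under the combination (limma adjusted p = 0.0384), and with quantile normalization it passed under anti-PDL1 (limma adjusted p = 0.0329). Of all 770 genes, 6.23% passed in the fit of those 6 mice and 1.95% under anti-PDL1 with quantile normalization. Over 28 alternatives in each comparison its log2 fold change ran from 0.81 to 1.55 under the combination, from 0.51 to 2.13 under anti-PDL1 and from 0.43 to 1.74 under anti-CTLA4. The adjusted p ran from 0.00983 to 0.741, from 0.00127 to 0.532 and from 0.00637 to 0.915 over the same alternatives. Without any treated tumour whose factor exceeded those of the IgG libraries, the fold changes of Casp1 were 1.14, 0.51 and 0.58, the single antibodies then being represented by 1 tumour each. Without the 3 tumours of low proliferation score they were 1.34, 0.98 and 0.58, and those of Il18 were 0.86, 0.48 and 0.55.

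Nlrp3, the sensor of the inflammasome, had 46.2, 89.6 and 51.3 normalized counts in combination mice 1 to 3, 28.2, 118 and 55.4 under anti-PDL1, 87.7, 68.2 and 41.2 under anti-CTLA4, and 40.3, 66.9 and 43.1 under IgG. All groups overlapped, and the lowest tumour of the 12 was anti-PDL1 mouse 1. The log2 fold change was 0.29 under the combination (SE 0.512, limma adjusted p = 0.908), 0.22 under anti-PDL1 (limma adjusted p = 0.861) and 0.36 under anti-CTLA4 (limma adjusted p = 0.656), and with median scaling it was -0.17, -0.27 and -0.22. Without combination mouse 2 the first of these was 0.00, and without anti-PDL1 mouse 2 the second was -0.29.

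Counted by non-overlap, 3 of 8 genes (Il1a, Il18 and Casp1) were higher in every combination tumour than in every IgG tumour, where 22.7% of all genes were. Under anti-PDL1 this held for Il18 and Casp1, 2 of 8 against 13.0% of all genes, and under anti-CTLA4 for Il1a, Il18 and Casp1, 3 of 8 against 19.0%. Il18 and Casp1 lay higher in all 9 treated tumours at once, as did 8.05% of all genes. None of the 8 genes was lower in every tumour of a treated group than in every IgG tumour, an order that 13.2% of all genes had under the combination, 13.1% under anti-PDL1 and 11% under anti-CTLA4, and 5.84% in all 9 treated tumours at once.

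A ratio between genes of the same library cancels its normalization factor, so 3 such ratios were computed, all chosen after the values were seen. The log2 ratio of Casp1 to the mean of the other 7 genes was 0.16, -0.21 and -0.39 in combination mice 1 to 3, -0.15, 0.33 and 0.40 under anti-PDL1, -0.15, -0.36 and -0.62 under anti-CTLA4, and -0.98, -1.23 and -1.04 under IgG. All treated tumours lay above all IgG tumours. The differences from IgG were 0.94 log2 units under the combination, 1.28 under anti-PDL1 and 0.70 under anti-CTLA4. Each had a two-sided exact permutation p of 0.1, the smallest that 3 against 3 mice allow, so that this permutation test cannot reach 0.05. Casp1 relative to Nlrp3 was higher by 1.05, 1.37 and 1.00 log2 units (exact permutation p = 0.1 each), again with no overlap.

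These ratios compare unequal changes of transcripts and show no absolute level of either. With the values of all libraries raised to a common floor of 52.49, the highest limit of any library, the differences were 0.42, 0.66 and 0.21 for Casp1 over the other genes and 0.67, 0.77 and 0.58 for Casp1 over Nlrp3, since the IgG values of Casp1 lie below that floor. The ratio of the antagonist Il1rn to its agonist Il1b differed from IgG by -0.25 under the combination, -0.37 under anti-PDL1 and -0.72 under anti-CTLA4 (exact permutation p = 0.8, 0.8 and 0.4), and the groups overlapped. Its value ran from -0.61 in anti-CTLA4 mouse 2 to 2.28 in anti-PDL1 mouse 1.

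**Figure D3:**
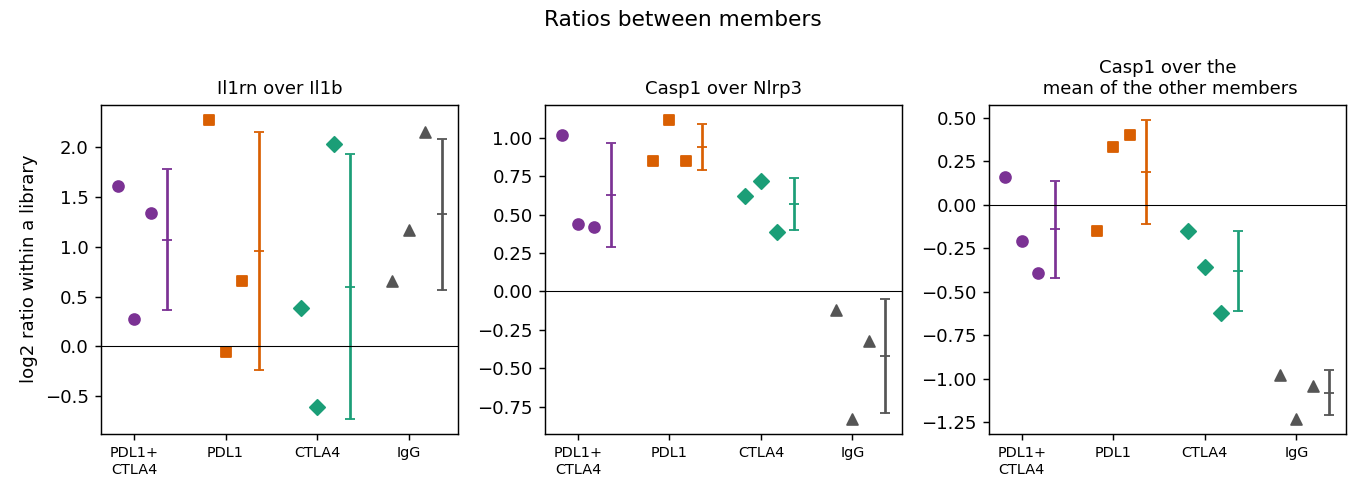
Log2 ratios within each library, with 1 point per mouse and the mean ± SD of each group of 3 beside the points. Casp1 over Nlrp3 was at 0.39 or higher in all treated tumours and at -0.12 or lower in all IgG tumours, Casp1 over the other genes was at -0.62 or higher in all treated tumours and at -0.98 or lower in all IgG tumours, and the ratio of Il1rn to Il1b overlapped between all groups.

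The comparison of the combination with each single antibody asks whether the second antibody added to the first. In limma, 0 of 8 genes passed against anti-PDL1 (0% of all genes passed) and 0 of 8 against anti-CTLA4 (0%), and 0 of 8 had an unadjusted p under 0.05 in either. Of all 770 genes, 5 and 33 had an unadjusted p under 0.05 in limma, in that order. Against anti-PDL1 the log2 differences ran from -0.42 for Il18 (95% interval -1.86 to 1.03) to 0.30 for Il1a (95% interval -0.54 to 1.14). Against anti-CTLA4 they ran from -0.67 for Il33 (95% interval -1.86 to 0.52) to 0.19 for Il1rn (95% interval -0.59 to 0.97). These intervals leave room for differences of more than 1 log2 unit in either direction for Il18. Without anti-PDL1 mouse 2, the Il18 difference was 0.37, and without the 3 tumours of low proliferation score the Il33 difference was 0.13.

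The interaction sets the log2 change under both antibodies against the added log2 changes under each antibody alone. It passed for 0 of 8 genes in limma, where 1.3% of all genes passed, and 0% in the fit of genes with a mean of at least 50 normalized counts. It had an unadjusted p under 0.05 in limma for 0 of 8 genes and for 106 of all 770 genes. It ran from -1.68 to -0.06 over the 8 genes. It was -1.68 for Il18 (SE 0.905, limma adjusted p = 0.379) and -1.61 for Casp1 (SE 0.78, limma adjusted p = 0.368). The fitted difference of Casp1 from IgG was 1.34 with both antibodies, against 1.59 and 1.36 with anti-PDL1 and anti-CTLA4 alone. Of all genes above the floor in every library, 26.8% had a positive interaction, with a median of -0.59, and the median of the 8 genes was -0.46. Without the tumours of high factor, the Casp1 interaction was 0.05, and without the 3 tumours of low proliferation score it was -0.22 for Casp1 and -0.18 for Il18. In the fit with weights gene by gene both interactions passed, as did 25.2% of all genes. Leaving out 1 tumour at a time gave values from -2.14 to -1.0 for Casp1 and from -2.21 to -0.89 for Il18.

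The high values came mostly from 4 treated tumours. The factors were highest in anti-CTLA4 mouse 2 (2.6247), anti-CTLA4 mouse 1 (2.248), anti-PDL1 mouse 2 (2.1011) and combination mouse 2 (1.7928). In Il1b, Il18, Casp1 and Nlrp3 the 4 highest tumours were these 4. In Il1a, Il1r2 and Il33, 3 of the 4 highest were among them, and in Il1rn 2 were. Anti-PDL1 mouse 2 held the highest value of Il1a, Il1b, Il1rn, Il18, Casp1 and Nlrp3. Housekeeping genes had mean log2 levels of 9.17 to 9.25 in the treated libraries and 9.15 to 9.18 in the IgG libraries. Whether the factors were set on these genes is not given, so their closeness is no separate check of the scaling. With the log2 factor as a covariate, a step added after the data were seen, the log2 fold changes of Il1b were -0.09 under anti-PDL1 and -0.32 under anti-CTLA4, and those of Il18 were 0.43 under the combination, 0.72 under anti-PDL1 and 0.18 under anti-CTLA4. For Casp1 they were 0.97, 1.12 and 0.43 in the same order. The part of the factor in these levels was not tested.

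**Figure D4:**
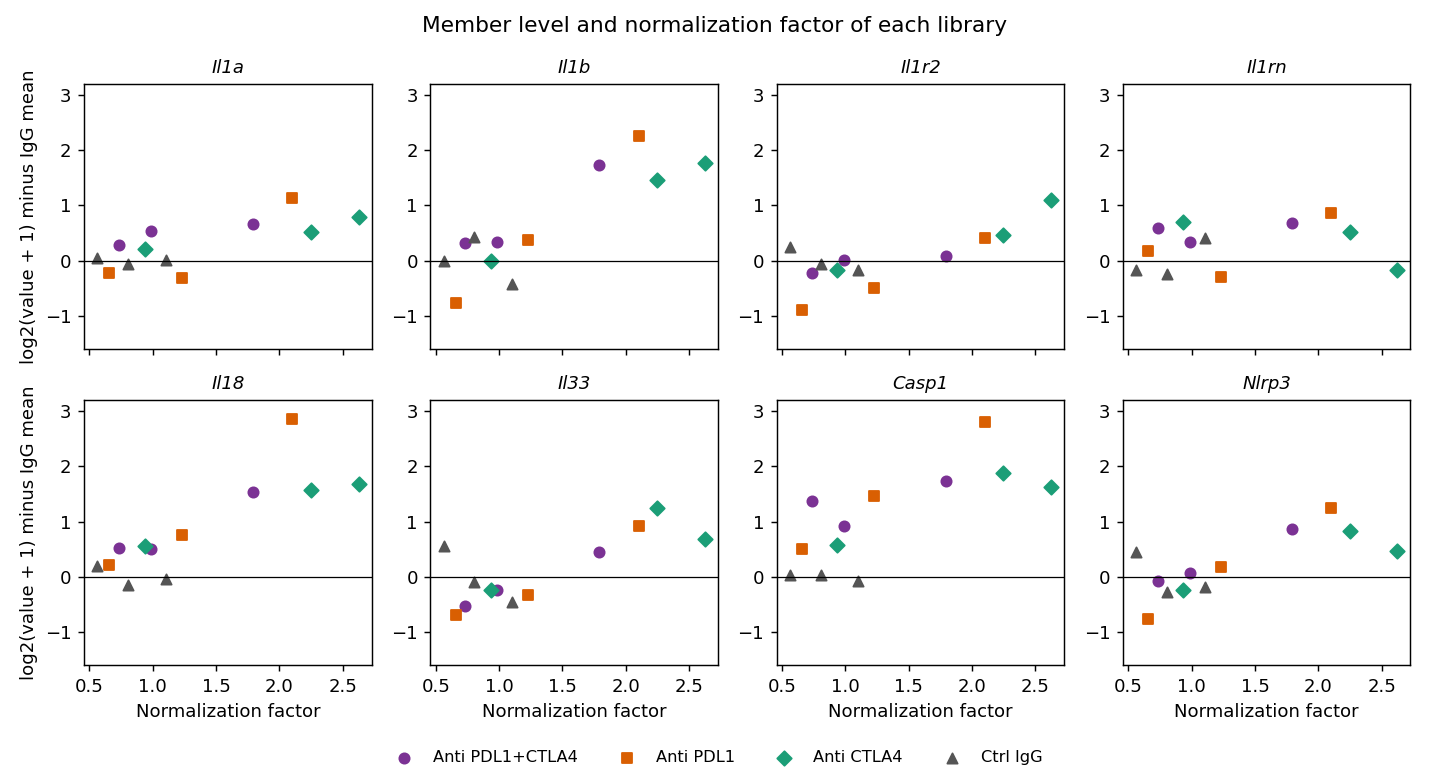
Log2(value + 1) of each gene minus its IgG mean, against the normalization factor of the library, with 1 point per mouse. In Il1b, Il18, Casp1 and Nlrp3 the 4 tumours with factors of 1.7928 to 2.6247 are the 4 highest, whereas in Il1rn the tumour with the highest factor lies below the IgG mean.

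Over the 12 tumours, the log2 levels of the 21 gene pairs without Il1rn had Pearson r of 0.42 to 0.94, with a median of 0.77. The highest was that of Il18 with Casp1. Over the 7 tumours of low factor the median was 0.50 and the range -0.44 to 0.92, and the pair of Il18 and Casp1 had an r of 0.83. The 7 pairs with Il1rn had r of 0.01 to 0.56 over the 12 tumours. These are descriptions across libraries that share a treatment and a factor, with no test. By the same measure over 609 genes, Casp1 was most alike to Klrk1 (r = 0.98), which encodes the activating receptor NKG2D, and to B2m (r = 0.98), the light chain of MHC class I. Il18 was most alike to Cd47 (r = 0.98), a surface signal against phagocytosis, and to the collagen gene Col4a5 (r = 0.97). Over the 7 tumours of low factor these values were 0.90, 0.92, 0.89 and 0.46. Klrk1 was listed at the floor in all 3 IgG libraries, so that part of its order over the 12 tumours is set by the floor.

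The other ligands had likenesses of the same height. Il1a was most alike to the interferon-induced antiviral gene Rsad2 (r = 0.95) and the kinase gene Pik3cg (r = 0.92), and Il33 to Tslp (r = 0.96), which encodes another alarmin, and Kir3dl2 (r = 0.95). Il1b was most alike to the liver enzyme genes Ces3a and Tdo2 (r = 0.95 each). For Il1r2 the most alike genes were Vhl (r = 0.94) and Myd88 (r = 0.92), the adaptor of the interleukin-1 receptor, and for Nlrp3 they were the T cell genes Icos and Pvrig (r = 0.94 each). Il1rn differed in height: its most alike genes were Irf8 (r = 0.86), a transcription factor of myeloid cells, and C1qb (r = 0.81), a complement gene of macrophages.

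Further genes of the pathway were few on the panel. Of 23 listed genes of interleukin-1 receptors and signalling 4 were measured, Il18r1, Il18bp, Myd88 and Map3k7, and 0 passed in each comparison with IgG, with median log2 fold changes of 0.27, 0.28 and 0.39 for the combination, then anti-PDL1, then anti-CTLA4. Il18bp, a secreted protein that binds and blocks interleukin-18, had 821, 541 and 760 normalized counts in combination mice 1 to 3, 699.6, 1343 and 639.6 under anti-PDL1, 634, 386 and 504 under anti-CTLA4, and 367, 421 and 500.1 under IgG. All combination and all anti-PDL1 tumours lay above the IgG tumours, as in 22.7% and 13.0% of all genes. The log2 fold changes of Il18bp were 0.71 (SE 0.316, limma adjusted p = 0.324) and 0.99 (SE 0.316, limma adjusted p = 0.136). Map3k7, the kinase TAK1, had 0.78 under anti-CTLA4 (SE 0.2996, limma adjusted p = 0.21).

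Of 17 further inflammasome and pyroptosis genes 2 were measured, and Nod2 was listed at the floor of 20 in all 12 libraries. Casp8, a caspase of cell death that can also cut interleukin-1 beta, had 429, 726 and 372 normalized counts in combination mice 1 to 3, 359.98, 1030 and 407 under anti-PDL1, 847.5, 1047 and 516 under anti-CTLA4, and 305, 245 and 247 under IgG. All 9 treated tumours lay above all IgG tumours, as in 8.05% of all genes. The log2 fold changes were 0.88 under the combination (limma adjusted p = 0.377), 1.01 under anti-PDL1 (limma adjusted p = 0.248) and 1.54 under anti-CTLA4 (SE 0.437, limma adjusted p = 0.129). Of 13 listed genes of NF-kB subunits and feedback, which act below the receptor, 11 were measured and 0 passed, with medians of 0.03, 0.30 and 0.48.

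Of the genes that interleukin-1 is known to induce, few were read above the floor. All 18 listed were measured, but 6 of them lay above the floor in every library, and 5, 6 and 6 were at the floor in all 3 mice of the combination, anti-PDL1 and anti-CTLA4 groups, against 3 in the IgG group. Among the 18, 0 were called higher and 2 were called lower in each comparison with IgG, with median log2 fold changes of 0.00, -0.04 and -0.18, values set in part by members at the floor. Of all 770 genes, 1, 2 and 0 were called higher and 21, 21 and 20 lower, so that calls on the whole panel were also mostly lower. The 2 lower calls among the 18 were Il6 and Il17a, which were listed at 20 in all 9 treated tumours and had 34.7, 33.2 and 36.4 and 37.9, 39.9 and 34.2 normalized counts in the IgG tumours. A gene listed at 20 can hold up to 20 times the factor of its library, and in 4 of the 9 treated libraries that limit lay above the lowest IgG value of Il6, so no fold is given. With the common floor of 52.49 both genes stood at that floor in all libraries. The lower calls could therefore not remain, and that setting does not test them. Cxcl1, a chemokine that draws neutrophils, had 224, 362 and 252 normalized counts in combination mice 1 to 3, 98.5, 1143 and 182 under anti-PDL1, 780.1, 1488 and 539 under anti-CTLA4, and 283, 146 and 232 under IgG. The anti-CTLA4 tumours lay above all IgG tumours, as in 19.0% of all genes, and the log2 fold change was 2.00 (SE 0.794, limma adjusted p = 0.21). Cxcl1 was chosen after its values were seen.

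Downstream of interleukin-18 and interleukin-33, 7 of 12 listed genes were measured and 1, Ifng, was called lower in each comparison with IgG. Of all 770 genes, 21, 21 and 20 were called lower in these comparisons. Ifng encodes interferon-gamma, and it was listed at 20 in all 9 treated tumours, against 29.8, 43.3 and 36.4 normalized counts under IgG, with the same limit of the floor in 4 libraries. With the common floor this call ended too (limma adjusted p = 1 in each comparison). Type I interferon response genes, of which 18 of 23 were measured, had median log2 fold changes of 1.00, 1.11 and 0.96, and 0 passed. Oas1a, an antiviral sensor, had 307, 296 and 321 normalized counts in combination mice 1 to 3, 146, 742 and 249.7 under anti-PDL1, 328, 176 and 145 under anti-CTLA4, and 137, 96.2 and 83.9 under IgG. The part of the interferon response in the levels of Casp1 and Il18 was not tested.

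Markers of cells that could carry these transcripts were read from fixed lists. Of 18 macrophage and monocyte markers 15 were measured, and their summed level was 7117 to 9902 normalized counts in the combination tumours, 5355 to 17107 under anti-PDL1 and 6053 to 12411 under anti-CTLA4, against 4155 to 5570 under IgG. None of the defining markers was at the floor: Csf1r, the receptor of a macrophage growth factor, had 919, 2160 and 1271 normalized counts in combination mice 1 to 3, 625, 3059 and 1516 under anti-PDL1, 3129, 1814 and 1045 under anti-CTLA4, and 803, 702 and 1073 under IgG. Group means, in the order combination, anti-PDL1, anti-CTLA4 and IgG, were 489, 626, 397 and 237 for Adgre1 and 1310, 1065, 785 and 835 for Cd68. Those of Cx3cr1 were 109, 89.5, 100 and 124, lower in each treated group. Fold changes were positive in 13, 14 and 13 of the 15 markers. In limma, 0 of 15 macrophage markers passed in any comparison with IgG, with medians of 0.69, 0.75 and 0.75. The smallest p was that of Cd84 under the combination (log2 fold change 1.07, limma adjusted p = 0.0721) and under anti-PDL1 (0.90, limma adjusted p = 0.107), and that of Ms4a4a under anti-CTLA4 (0.77, limma adjusted p = 0.151).

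Of 15 neutrophil markers 8 were measured, with summed levels of 685 to 1718 under the combination, 407 to 1452 under anti-PDL1 and 664 to 2769 under anti-CTLA4, against 435 to 536 under IgG. The defining marker S100a8 had 158, 807 and 107 normalized counts in combination mice 1 to 3, 85.4, 254 and 226 under anti-PDL1, 171, 173 and 1559 under anti-CTLA4, and 112, 89.4 and 88.3 under IgG. Ly6g was listed at the floor in 6 of the 9 treated tumours. The 1 neutrophil marker called, Ceacam3, was lower in all 3 comparisons and at or near the floor in the treated tumours, and its calls ended with the common floor (limma adjusted p = 1 in each).

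Of 11 endothelial markers, of cells known to store interleukin-33, 6 were measured and 0 passed. Cdh5, the cadherin of endothelial junctions, had 319, 430 and 356 normalized counts in combination mice 1 to 3, 279, 708 and 344 under anti-PDL1, 378, 388 and 327 under anti-CTLA4, and 186, 128 and 199.8 under IgG, with log2 fold changes of 1.12, 1.28 and 1.11 (limma adjusted p = 0.139, 0.082 and 0.151). Of 11 T cell markers all were measured, with medians of 0.04, -0.07 and -0.10, and 1, Cd8b1, was called lower under the combination (limma adjusted p = 0.0492, against 0.0882 under anti-PDL1 and 0.0537 under anti-CTLA4). Under the combination 21 of all 770 genes were called lower. Cd8b1, a chain of the CD8 coreceptor, was listed at 20 in 2 of 3 tumours of each treated group, with 25.65, 42.0 and 26.2 in the remaining tumour of the combination, anti-PDL1 and anti-CTLA4 groups, against 50.8, 62.4 and 44.2 under IgG, so no fold is given. Its call ended with the common floor (limma adjusted p = 0.741, 0.613 and 0.411), above which only IgG mouse 2 stood. Of 10 dendritic cell markers 6 were measured and 0 passed, and of 11 fibroblast and stellate markers 3 were measured and 0 passed.

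The 9 measured of 21 hepatocyte genes had summed levels of 65582 to 198165 normalized counts under the combination, 55038 to 606177 under anti-PDL1 and 51101 to 482005 under anti-CTLA4, against 42180 to 58139 under IgG. Their sum was highest in anti-PDL1 mouse 2, the tumour that also held the highest Il1b and Il18. Proliferation genes, with 13 of 20 measured and 0 passed, had medians of 0.19, -0.77 and -1.63. The part of macrophage, neutrophil, endothelial, hepatocyte and proliferating cells in the levels of the 8 genes was not tested.

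Without the 3 tumours of low proliferation score, anti-PDL1 was represented by 2 tumours and anti-CTLA4 by 1, whose spread is taken from the other groups. The medians of the proliferation genes were then 0.19, 0.22 and 0.07 in the comparisons with IgG of the combination, then anti-PDL1, then anti-CTLA4. Those of the type I interferon response genes were 1.00, 0.32 and 0.19, and those of the macrophage markers 0.69, 0.43 and 0.24. Under the combination, whose tumours are the same in both fits, 4 of 18 interferon response genes, 1 of 15 macrophage markers and 2 of 6 endothelial markers, Cdh5 among them (limma adjusted p = 0.0355), then passed as higher, where 7.79% of all 770 genes passed in either direction. For the receptor and signalling genes the medians were 0.27, 0.01 and -0.03, and for the NF-kB genes 0.03, -0.13 and -0.10. The log2 fold changes of Casp8 were 0.88, 0.53 and 0.96, and that of Cxcl1 under anti-CTLA4 was 1.34.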

How the data were processed

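Transcripts were measured with the nanoString IO360 mouse panel in 12 tumours. The deposited values are signal: normalized counts which, by the steps between the values, are raw barcode counts times 1 factor per library, with a floor of 20. The sources used here name no software, method or annotation. Each factor was recovered as the step of which at least 99.84% of the values above the floor were whole multiples (within 0.0075). No count test was run, since low counts are hidden by the floor.

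A linear model of log2(value + 1) was fitted in limma 3.58.1 (R 4.3.3). It had 1 mean for each group, 8 residual degrees of freedom and a trend of variance with mean, two-sided tests and Benjamini-Hochberg adjustment over 770 genes. A printed log2 fold change is on that scale and understates the change of low genes. On simulated data for the combination against IgG (770 genes, 200 changed, 10 runs) the fit recovered 27.7% of changes of 1 log2 unit and 75% of changes of 2 units, with 4.09% false calls. The simulated noise was normal and independent between genes, with no floor and no shift shared by a library. Only genes above the floor in every library were changed, so these rates need not hold for the data. Ratios and permutation tests used scipy 1.17.1. Symbols were matched to RefSeq (GRCm38.p6), 764 as current names and 6 as synonyms, for names and neighbours only.

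The 8 genes and the gene lists were chosen with earlier results of these data known. Named are the 8 genes, for each the 2 others with the highest Pearson r among 609 genes above the floor in at least 9 libraries, and from each list the called members or the 1 with the smallest p, with defining markers. Mice of a group count as replicates per the labels, and p-values measure the spread between these mice. Replicate numbers were not taken to pair mice across groups. Precision is limited by 3 mice per group and by counting error. Alternatives were filters, pseudocount, scaling, variance model, sample weights, samples in the fit, the replicate block, a common floor and each library left out. Added after the data were seen were subtraction of negative probes, the factor as covariate, the fit without tumours of low proliferation score, weights gene by gene and the ratios.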

Additional observations from a re-analysis of the deposited data

How the results depend on the processing

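Casp1 and Il18 kept the sign of their difference in all 28 settings of each comparison with IgG. All their treated values lay above all their IgG values, so most of these settings could not reverse it. Only the scalings, the factor as covariate and the subtraction of negative probes could have done so. The number of the 8 genes called was 0 in the reported fit. With array quality weights, whose estimate did not converge, it was 2 under the combination, 3 under anti-PDL1, 4 under anti-CTLA4, 2 against either single antibody and 2 in the interaction. With weights gene by gene it was 1, 1 and 2 against IgG, 1 for the combination against anti-CTLA4 and 2 in the interaction. In that fit 157, 104 and 305 of all 770 genes were called against IgG, 152 for the combination against anti-CTLA4 and 194 in the interaction. It was 1 (Casp1) under the combination with only the groups compared, where 48 genes of all were called, and 1 (Casp1) under anti-PDL1 with quantile normalization, where 15 were. With a common floor 0 of the reported calls among all genes remained in any comparison with IgG. Il6, Il17a, Ifng and Ceacam3 lay below that floor in every library, so that their calls could not remain. Leaving out 1 library at a time gave 0 in every comparison. With the replicate block it was 0 in all 6 comparisons. The correlation of the deviations of same-numbered mice over 18 pairs ran from -0.61 to 0.75, with 11 over 0.1. Among the treated mice numbered 2 it was 0.75, 0.72 and 0.67. These values do not settle whether the numbers pair mice. All genes called ranged, where the reported fit had 22, 23 and 20 against IgG, over 0 to 190 for the combination, 0 to 282 for anti-PDL1 and 0 to 361 for anti-CTLA4. They numbered 0 to 61 and 0 to 250 against the single antibodies (0 each) and 0 to 337 in the interaction (10), the highest with array quality weights.

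The signs of other genes, none of them called, flipped as follows, and the cause was not tested. With median scaling, Nlrp3 under the combination was -0.17; Il1a, Il1rn and Nlrp3 under anti-PDL1 were -0.29, -0.24 and -0.27; Il1a, Il1r2, Il1rn, Il33 and Nlrp3 under anti-CTLA4 were -0.07, -0.11, -0.22, -0.01 and -0.22. With quantile normalization, Il1r2 under the combination was 0.07, Il1a and Il1rn under anti-PDL1 were -0.01 and -0.16, and Il1rn under anti-CTLA4 was -0.09. With a common floor, Il1r2 was 0.00 under the combination, and Il1r2 and Il33 were 0.04 each under anti-PDL1. With array quality weights, Il1a and Il1rn under anti-PDL1 were -0.28 and -0.15, and gene by gene -0.23 and -0.10.

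Without the 5 libraries of high factor, Nlrp3 under the combination was 0.00; Il1a, Il1b and Nlrp3 under anti-PDL1 were -0.23, -0.77 and -0.77; Il1b, Il1r2, Il33 and Nlrp3 under anti-CTLA4 were 0.00, -0.17, -0.23 and -0.24. In the same setting Il18 in the combination against anti-PDL1 was 0.30 and the Casp1 interaction was 0.05. With the log2 factor as covariate, Nlrp3 under the combination was -0.03; Il1a, Il1b and Nlrp3 under anti-PDL1 were -0.06, -0.09 and -0.19; Il1a, Il1b, Il1r2, Il33 and Nlrp3 under anti-CTLA4 were -0.01, -0.32, -0.12, -0.16 and -0.45. Without the 3 libraries of low proliferation score, Il1a, Il1b, Il1rn and Nlrp3 under anti-PDL1 were -0.28, -0.20, -0.06 and -0.29; Il1b, Il1r2, Il33 and Nlrp3 under anti-CTLA4 were 0.00, -0.17, -0.23 and -0.24; Il18 in the combination against anti-PDL1 was 0.37 and Il33 against anti-CTLA4 was 0.13.

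Leaving out 1 library at a time gave, under the combination, -0.13 to 0.07 for Il1r2, -0.38 to 0.17 for Il33 and 0.00 to 0.51 for Nlrp3. Under anti-PDL1 it gave -0.28 to 0.45 for Il1a, -0.20 to 1.31 for Il1b, -0.06 to 0.52 for Il1rn, -0.51 to 0.29 for Il33 and -0.29 to 0.72 for Nlrp3. Il18 in the combination against anti-PDL1 ran from -0.94 to 0.37. No library had a hepatocyte score high enough for the planned exclusion, so that setting was not run. The 24 to 401 counts behind each value and 3 mice per group limit what the fit can show.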
